A study of Mus musculus with 4 samples.

Results

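Integrins are adhesion receptors made of an alpha and a beta chain, and the genes described here are those of 16 alpha and 7 beta chains, of 9 proteins that act on their tails inside the cell, of 3 counter-receptors on other cells, and of Selplg and Cd44. They were taken as a list of 37 genes, and every probe set annotated to one of them alone was used. The list gave 81 of the 45037 probe sets tested, for 35 genes; Itga11 and Fermt1 were not analysed here. Of the 35 genes, 14 had 1 probe set and 21 had several, and the values of a gene are those of its brightest probe set, by the mean of all 4 arrays, unless another is named.

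An integrin binds matrix or a counter-receptor more firmly once its tails are engaged from inside. Talin and a kindlin bind the beta tail and switch the receptor on, and vinculin, paxillin and integrin-linked kinase tie it to actin. In bone marrow, the receptors formed by Itga4 with Itgb1 or Itgb7 hold stem and progenitor cells to Vcam1 and fibronectin, and the Itgal and Itgb2 pair binds Icam1 and Icam2.

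The study profiled LSK cells, which lack lineage markers and carry c-Kit and Sca1, and which hold the stem cells and multipotent progenitors of mouse bone marrow. Cells from the femurs of mice that the labels call WT B6/129 were sorted into a high (Hi) and a low (Lo) group by how much c-Myc-eGFP, a fusion protein, they held. Each group had 2 arrays, and both groups carried the fusion protein, so wild type here does not mean that its gene was absent. The sources used here do not give age, sex or the number and pooling of mice, so p-values measure the spread between these arrays, which may be technical. The question was which transcripts go with the level of c-Myc protein within this compartment.

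Across all probe sets the arrays correlated at 0.99 within Hi, at 0.983 within Lo and at 0.972 to 0.976 between the groups. Myc itself had log2 intensities of 12.41 and 12.41 in Hi, against 11.70 and 10.64 in Lo. Between 58.8% and 60.7% of probe sets on an array were brighter than the dim limit, set on that array by the highest of 27 controls for bacterial transcripts (log2 intensity 4.735 to 4.872). Of 8 measured markers of stem and progenitor cells, all 8 were above this limit on all 4 arrays. Kit, Cd34 and Flt3 differed by -0.27, 0.11 and -0.15 on the log2 scale. In Hi 4 of the 8 were lower at an unadjusted p under 0.05, with log2 differences of -1.68 ± 0.52 (SE) for Slamf1, -1.15 ± 0.14 for Hlf and -0.96 ± 0.18 for Mecom, and Cd48 was higher at 0.74 ± 0.19. The fourth was Procr, with log2 intensities of 9.62 and 9.91 in Hi, against 11.71 and 11.81 in Lo. Procr, Slamf1, Hlf and Mecom are known from stem cells and Cd48 from later progenitors, and the part of this shift in the results was not tested. The difference between the 3′ and 5′ Gapdh controls, a sign of RNA quality, was 0.63 and 0.65 for the Hi arrays and 0.74 and 0.78 for the Lo arrays on the log2 scale, and that of the Actb controls was 0.60 and 0.55 for the Hi arrays and 0.84 and 0.57 for the Lo arrays; their part in the results was not tested.

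Single chains and counter-receptors showed gaps between Hi and Lo, with Vcam1 and Itgax higher and Itgae, Itgb5, Icam1 and Itgb2 lower in Hi, but no member passed the adjusted test. The limma fit called 0 of 35 at an adjusted p of 0.05, as it called 0 of 45037 probe sets (0.00%), and the smallest adjusted p of a member was 0.0947. At an unadjusted p under 0.05, Itgax and Vcam1 were higher in Hi, 2 of 35 members (5.71%) where 9.25% of all genes were. Itgae, Itgb2, Itgb5 and Icam1 were lower in Hi, 4 of 35 (11.4%) where 11% of all genes were. In both directions together the share was 17.1%, near the 20.2% of all 18193 genes, so these counts are not a result about the members. The median log2 difference, Hi minus Lo, was -0.14 over the 35 members and 0.03 over all genes. The Hi pair lay wholly above the Lo pair in 10 members (28.6%) and wholly below it in 12 (34.3%), against 30.0% and 25.4% of all genes. Together 22 of 35 did not overlap (62.9%), against 55.4% of all genes. Of all 81 probe sets, 5 were higher in Hi at that level, where 9.05% of the whole array were, and 9 were lower, where 8.91% were. The sum was 17.3% of the 81, against 18.0% of the whole array.

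**Figure D1:**
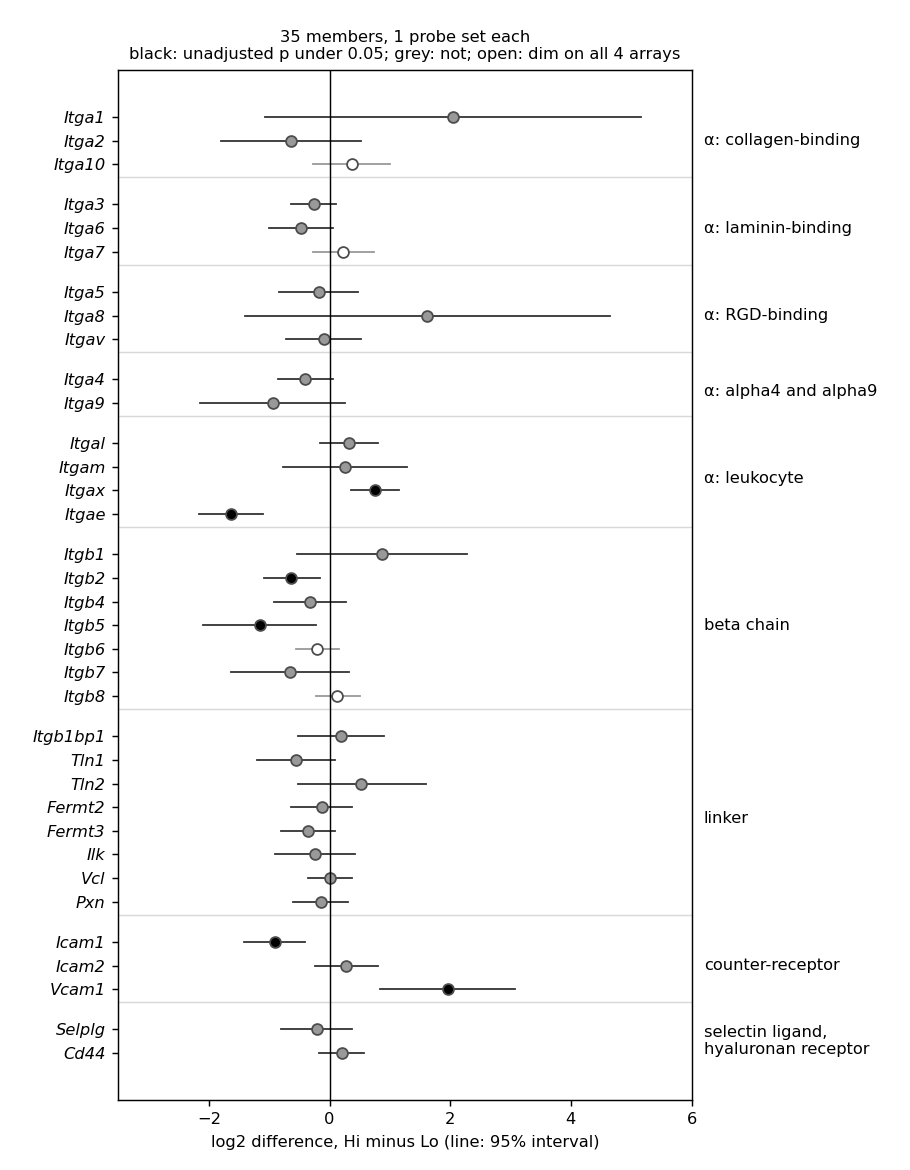
Log2 difference, Hi minus Lo, of the 35 members by role, each with the 95% interval of the limma fit; black points have an unadjusted p under 0.05, and open points mark the 4 genes at or below the dim limit on all 4 arrays. The linker genes lie between -0.55 and 0.53, while the counter-receptors run from -0.91 for Icam1 to 1.96 for Vcam1.

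Among the leukocyte alpha chains, Itgax was higher and Itgae lower in Hi, while Itgal and Itgam differed by less. Itgax encodes the alpha chain CD11c, best known on dendritic cells. Its probe set 1419128_at had log2 intensities of 7.86 and 8.04 in Hi, against 7.19 and 7.20 in Lo. The groups did not overlap, and the arrays of each group lay close together. The log2 difference was 0.76 ± 0.14 (SE), 1.69-fold, with a limma unadjusted p of 0.00627 and an adjusted p of 0.131. Summed over the 5 other dendritic cell markers, intensity came to 5228 and 5935 in the Hi arrays and 5609 and 6819 in the Lo arrays, mostly from Flt3, which progenitors express too, and their part in the result was not tested. Since these are sorted populations measured in bulk, fewer cells of a type and less RNA per cell cannot be told apart, for this gene and for all others.

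Itgae encodes the alpha chain CD103, which pairs with Itgb7 to bind E-cadherin. Its probe set 1447541_s_at had log2 intensities of 4.71 and 4.37 in Hi, against 6.07 and 6.27 in Lo. Both Hi arrays were at or below the dim limit and both Lo arrays above it. For this probe set only a bound can be given, at least 2.47-fold lower in Hi. The fitted log2 difference was -1.63 ± 0.19 (SE), with a limma unadjusted p of 0.00105 and an adjusted p of 0.0947. A second probe set, 1449216_at, differed by less, with 4.82 and 5.14 in Hi and 5.46 and 5.51 in Lo. Hi replicate 1 was at or below the dim limit on it, and the log2 difference was -0.50 ± 0.17 (SE). In fits over 1 value per gene Itgae was the member that passed: limma gave an adjusted p of 0.0486 with its highest-mean probe set, where 2.22% of 18193 genes passed and 1.18% were lower in Hi. Averaged over its probe sets, the log2 difference was -1.06 and the adjusted p 0.0397, where 2.90% passed and 1.52% were lower. Over the alternatives tried its adjusted p ran from 0.0397 to 0.434. Of 7 measured T and NK cell markers, 6 had log2 differences below 0, with a median of -0.77 over all 7. Those lower in Hi at an unadjusted p under 0.05 were Il2rb at -1.60 ± 0.51 (SE), Cd8a at -1.19 ± 0.19 and Cd3d at -0.77 ± 0.25, and Nkg7 was higher at 0.55 ± 0.17. Cd3e, Cd3g and Klrd1 overlapped between the groups, at -0.10, -0.15 and -0.92, and Il2rb was at or below the dim limit on Hi replicate 1. Summed over all 7, intensity came to 8246 and 7641 in the Hi arrays and 6301 and 5441 in the Lo arrays, mostly from Nkg7. The part of such cells in the result was not tested.

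Itgal, the alpha chain of the Icam receptor of lymphocytes, had log2 intensities of 10.26 and 10.47 in Hi, against 9.92 and 10.16 in Lo. The groups were apart by a narrow margin, and the log2 difference of 0.33 had a 95% interval from -0.15 to 0.81. Its other probe set gave 0.35. Itgam encodes CD11b, a common lineage marker of myeloid cells; the sources used here do not list the antibodies of the lineage sort. It had 5.73 and 4.95 in Hi and 5.38 and 4.79 in Lo, so the groups overlapped, and its log2 difference of 0.26 turned to -0.13 without Hi replicate 1 and to -0.04 without Lo replicate 2.

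**Figure D2:**
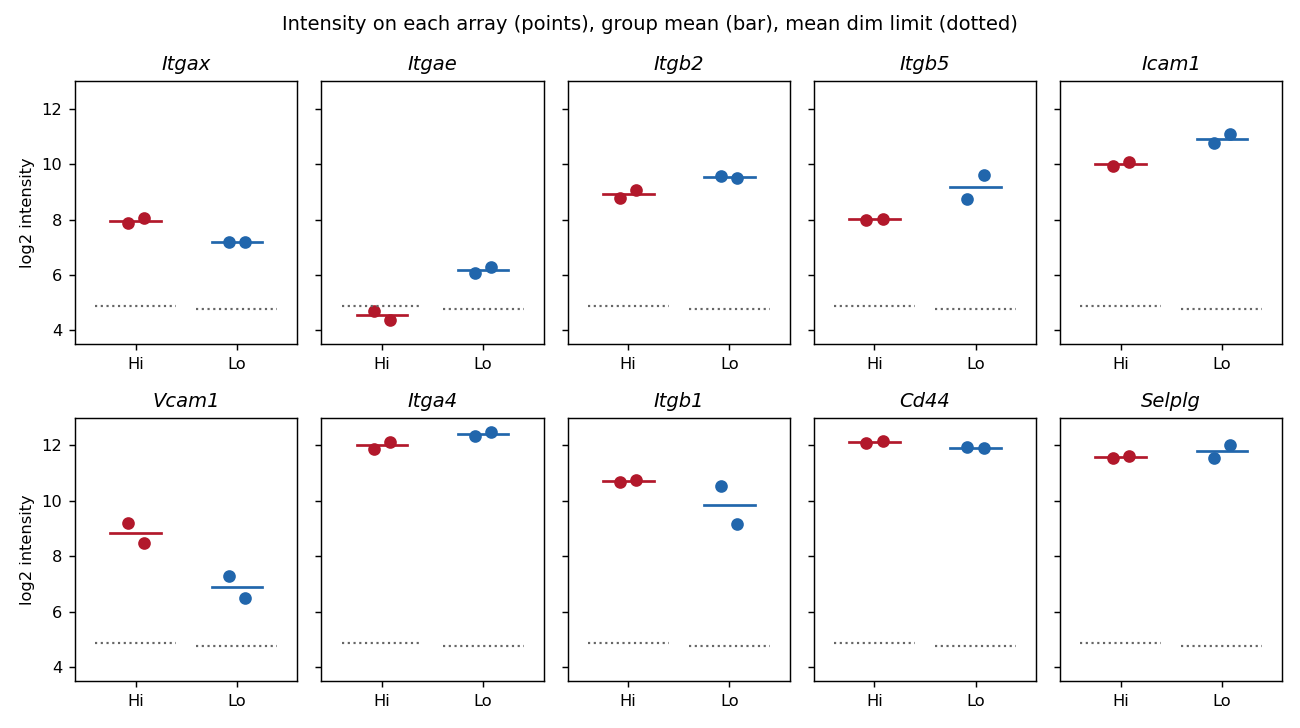
Log2 intensity of 10 members on each of the 2 Hi and 2 Lo arrays (points), with the group mean as a bar and the mean dim limit of the group as a dotted line. Itgae lies at or below the limit in Hi, and the Lo arrays of Itgb1 and Itgb5 lie far apart.

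Of the 7 beta chains, Itgb2 and Itgb5 were lower in Hi, Itgb1 leaned higher without passing, and Itgb6 and Itgb8 were at or below the dim limit on all 4 arrays. Itgb2 encodes CD18, the partner of Itgal, Itgam and Itgax. The 3 partner chains had differences above 0 while that of Itgb2 was below, but of the 3 only Itgax had an unadjusted p under 0.05. The Itgb2 probe set 1450678_at had log2 intensities of 8.77 and 9.05 in Hi, against 9.59 and 9.49 in Lo. The groups did not overlap, and the log2 difference was -0.63 ± 0.17 (SE), 1.54-fold lower, with a limma unadjusted p of 0.0197 and an adjusted p of 0.191. Without Hi replicate 1 the log2 difference was -0.49 with an unadjusted p of 0.106. With 1 array left out, its group has a single array, which is assumed to vary as the other group does.

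Itgb5 pairs with Itgav in a receptor for vitronectin, and all of its probe sets were lower in Hi. The probe set 1456133_x_at had log2 intensities of 8.0 and 8.01 in Hi, against 8.73 and 9.60 in Lo. Both Lo arrays were above both Hi arrays, and the Lo arrays were far apart. Its log2 difference was -1.16 ± 0.34 (SE), 2.23-fold lower, with a limma unadjusted p of 0.0263 and an adjusted p of 0.213. All 4 probe sets of the gene ran the same way, from -1.58 to -1.16, and 3 of them had an unadjusted p under 0.05. Leaving out Lo replicate 2 reduced the log2 difference to -0.72, and leaving out Lo replicate 1 gave -1.60. A name ending in x_at marks a probe set with probes that also match other sequence; 1417534_at, which has no such ending, gave -1.58 ± 0.42 (SE).

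The 250 bases before the start of Itgb5 (GRCm38.p6, chr16:33829415-33829664, plus strand) are shown since this chain had 4 probe sets on the same side; capitals mark GGGCGG, the Sp1 box, on either strand.
Itgb5: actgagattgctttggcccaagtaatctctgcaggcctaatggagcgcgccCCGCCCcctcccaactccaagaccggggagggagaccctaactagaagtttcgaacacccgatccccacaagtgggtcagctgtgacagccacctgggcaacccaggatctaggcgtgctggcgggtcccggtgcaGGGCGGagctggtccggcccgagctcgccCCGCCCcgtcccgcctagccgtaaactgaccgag
The 3 matches begin 199, 63 and 34 bases before the start.

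Itgb1 is the common beta chain, the partner of most alpha chains for matrix. Its probe set 1426918_at had log2 intensities of 10.68 and 10.74 in Hi, against 10.54 and 9.16 in Lo. The Hi arrays lay close together just above Lo replicate 1, and Lo replicate 2 was well below all others. The log2 difference of 0.87 ± 0.51 (SE) had a 95% interval from -0.54 to 2.28; leaving out Lo replicate 2 gave 0.18 and leaving out Lo replicate 1 gave 1.56. The 5 further probe sets had differences from 0.08 to 0.80, and 0 of the 6 had an unadjusted p under 0.05.

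Itgb7, which pairs with Itga4 and Itgae, had 9.89 and 9.96 in Hi and 10.12 and 11.04 in Lo. The groups were apart, but the log2 difference of -0.66 shrank to -0.20 without Lo replicate 2 and was -1.12 without Lo replicate 1. Itgb4, the laminin receptor chain of epithelia, overlapped between groups at -0.32. Itgb6 and Itgb8, partners of Itgav in the release of active TGF-beta, have no fold here since all 4 arrays were at or below the dim limit; the fitted log2 difference was 0.13 for Itgb8, and -0.20 and 0.15 for the probe sets of Itgb6.

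Of the alpha chains for collagen, Itga1 had the largest log2 difference of the 35 members, but its Lo arrays disagreed. Itga1 pairs with Itgb1 to bind collagen. The probe set 1439713_at had log2 intensities of 7.97 and 7.97 in Hi, against 7.50 and 4.36 in Lo, so 1 Lo array was near Hi and the other at or below the dim limit. The log2 difference was 2.05 ± 1.12 (SE), with 0.48 when Lo replicate 2 was left out and 3.62 when Lo replicate 1 was. On 1455251_at, a probe set singled out after its values were seen, Hi had 6.15 and 6.37 and Lo had 3.29 and 4.08. There both Lo arrays were at or below the dim limit, and this probe set was at least 2.83-fold higher in Hi. Its fitted log2 difference was 2.57 ± 0.32 (SE), with a limma unadjusted p of 0.00127 and an adjusted p of 0.0949. Itga2, the collagen receptor chain of platelets, overlapped between groups at -0.64 with a 95% interval from -1.79 to 0.52. Itga10 was at or below the dim limit on all 4 arrays.

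The bases before the start of Itga1 (GRCm38.p6, chr13:115101965-115102214, minus strand) and Itgax (GRCm38.p6, chr7:128129300-128129549, plus strand) are shown for the alpha chain with the largest difference and for the one that was higher in Hi at an unadjusted p under 0.05; capitals mark TGANTCA, an AP-1 box.
Itga1: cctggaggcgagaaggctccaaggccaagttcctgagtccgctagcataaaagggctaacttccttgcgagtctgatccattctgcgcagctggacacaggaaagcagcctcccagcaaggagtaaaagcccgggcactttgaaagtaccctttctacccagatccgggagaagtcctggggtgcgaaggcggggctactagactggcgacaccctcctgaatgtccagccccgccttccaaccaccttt
Itgax: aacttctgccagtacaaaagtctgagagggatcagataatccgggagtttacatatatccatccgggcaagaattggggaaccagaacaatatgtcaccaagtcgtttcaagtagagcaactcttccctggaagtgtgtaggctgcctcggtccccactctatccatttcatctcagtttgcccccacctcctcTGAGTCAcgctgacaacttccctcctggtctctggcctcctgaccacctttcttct
The AP-1 letters in Itgax begin 56 bases before the start, and Itga1 held none of the 4 motifs searched.

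Of the 3 alpha chains for laminin, 0 had an unadjusted p under 0.05. Itga6, CD49f, which marks stem cells of several tissues, had log2 intensities of 11.64 and 11.49 in Hi, against 12.22 and 11.85 in Lo. The groups did not overlap, and the log2 difference was -0.47 ± 0.19 (SE), with a limma unadjusted p of 0.0687; its second probe set gave -0.34. Itga3 had 6.52 and 6.62 in Hi and 6.80 and 6.87 in Lo, a log2 difference of -0.26, while its further probe sets gave -0.74 and 0.01. Itga7, known from muscle, was at or below the dim limit on all 4 arrays.

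The chains that read the RGD motif of matrix proteins were close between the groups or rested on 1 array. Itga5, the classical fibronectin receptor chain, had 9.77 and 9.96 in Hi and 9.78 and 10.31 in Lo on the log2 scale, an overlap. Its probe set 1458996_at gave a log2 difference of -1.31 with 1 of the 2 Hi arrays at or below the dim limit, 1423268_at gave -0.03, and 1457561_at, dim on all 4 arrays, gave 0.22. Itgav, the partner of several beta chains, had 11.79 and 11.32 in Hi and 11.76 and 11.54 in Lo, and its 5 probe sets ran from -0.56 to 0.24. Itga8 was above the dim limit on Hi replicate 1 alone, at 5.73, and its other arrays had 2.56 to 2.69. Its log2 difference of 1.62 was 0.10 without that array, and its second probe set, dim on all 4 arrays, differed by 0.06.

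Itga4, CD49d, is the chain through which progenitors hold to Vcam1 and fibronectin. Its probe set 1436037_at had log2 intensities of 11.87 and 12.14 in Hi, against 12.35 and 12.47 in Lo. The groups did not overlap on it, and the log2 difference was -0.40 ± 0.16 (SE), with a limma unadjusted p of 0.0711. Its probe sets disagreed in sign: 1450155_at gave 0.52, 1421194_at 0.09 and 1456498_at -0.34, while 1427615_at was dim on all 4 arrays at -0.14. The mean over all its probe sets differed by -0.06, so the direction depended on the probe set. Itga9, a related chain that also binds Vcam1, had 6.75 and 6.98 in Hi and 7.24 and 8.38 in Lo; the log2 difference of -0.94 was -0.37 without Lo replicate 2, and its further probe sets gave -0.04 and -0.22.

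**Figure D3:**
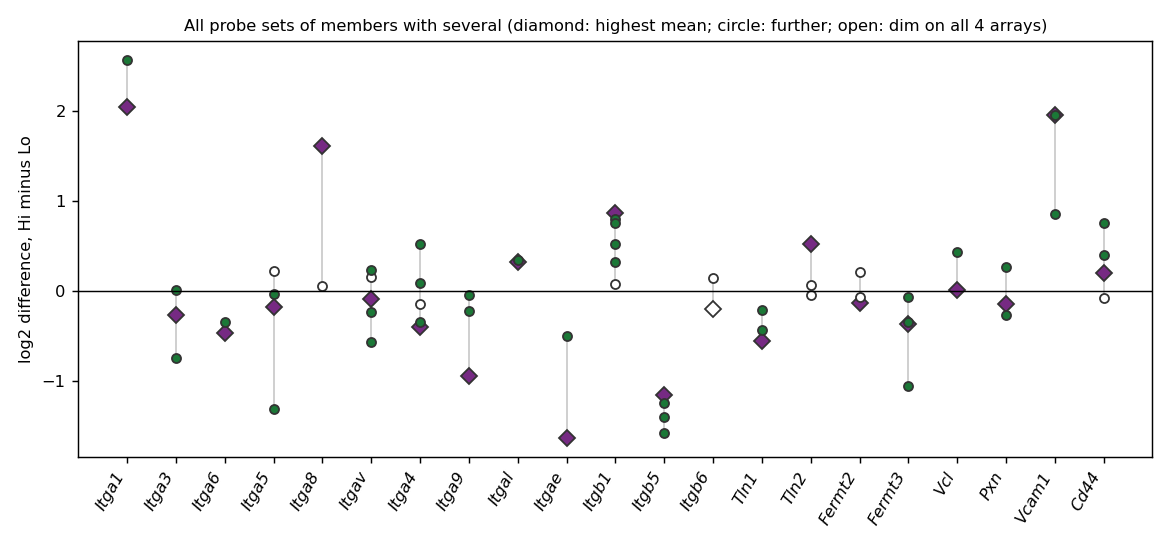
Log2 difference, Hi minus Lo, of each probe set of the 21 members with several; diamonds mark the probe set with the highest mean, circles the further ones, and open symbols those at or below the dim limit on all 4 arrays. The 4 probe sets of Itgb5 all lie below 0 and the 3 of Vcam1 above, while those of Itga4 lie on both sides.

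The linkers showed 0 of 8 members at an unadjusted p under 0.05, where 20.2% of all genes were, and their median log2 difference was -0.14. Tln1, talin, which pulls the beta tail into its active form, had log2 intensities of 11.63 and 11.74 in Hi, against 11.98 and 12.51 in Lo. The groups did not overlap, and the log2 difference of -0.55 had a 95% interval from -1.20 to 0.09; without Lo replicate 2 it was -0.29, and without Lo replicate 1 -0.82. Fermt3, the kindlin of blood cells, had 11.80 and 11.89 in Hi and 12.08 and 12.33 in Lo. Its log2 difference was -0.36, with an interval from -0.80 to 0.09. Of its further probe sets, 1433964_s_at gave -0.34 and 1456014_s_at -0.07, and 1443641_at, singled out after its values were seen, gave -1.06 ± 0.21 (SE) with a limma unadjusted p of 0.00785 and an adjusted p of 0.141.

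The remaining linkers were close between the groups or dim on most arrays. Vcl, vinculin, which reinforces loaded adhesions, differed by 0.01 with an interval from -0.36 to 0.38 on the log2 scale, and its dimmer probe set by 0.44. Pxn, the scaffold paxillin, differed by -0.14, and its further probe sets by -0.26 and 0.27. Ilk, the pseudokinase that joins integrins to parvins, differed by -0.24 with an interval from -0.90 to 0.43. Itgb1bp1, an inhibitor that competes with talin for the Itgb1 tail, differed by 0.19 with an interval from -0.52 to 0.90. Tln2 was above the dim limit on Hi replicate 2 alone and Fermt2 on Lo replicate 1 alone. Their log2 differences were 0.53 for Tln2 and -0.13 for Fermt2. The further probe sets, dim on all 4 arrays, gave -0.04 and 0.07 for Tln2 and -0.07 and 0.21 for Fermt2.

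Among the counter-receptors Vcam1 was higher and Icam1 lower in Hi, each at an unadjusted p under 0.05. Vcam1, the ligand of Itga4 receptors, is known from stromal, endothelial and macrophage cells of the marrow and is also made by some progenitors. Its probe set 1448162_at had log2 intensities of 9.21 and 8.47 in Hi, against 7.28 and 6.49 in Lo. The Hi pair lay wholly above the Lo pair, and each pair spread over less than the gap between the means. The mean was 8.84 ± 0.52 for the Hi arrays and 6.89 ± 0.56 for the Lo arrays (SD, n = 2 each). The log2 difference was 1.96 ± 0.40 (SE), 3.88-fold, with a limma unadjusted p of 0.0086 and an adjusted p of 0.144. The probe set 1415989_at gave the same size, at 7.46 and 6.85 in Hi against 5.35 and 5.05 in Lo, and 1451314_a_at gave 0.86 ± 0.37 (SE).

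Markers of macrophages and of stromal, endothelial and erythroid cells were set beside Vcam1. Of 12 macrophage markers 1 was higher and 1 lower in Hi (unadjusted p under 0.05), and their summed intensity came to 4361 and 3616 in the Hi arrays and 2586 and 2484 in the Lo arrays. The higher one was the iron exporter Slc40a1, at a log2 difference of 1.77 ± 0.20 (SE), and the lower one the macrophage transcription factor Spic at -1.81 ± 0.30. Most of the sum in Hi came from Csf1r and Slc40a1. Csf1r had intensities of 1829.4 and 1223.5 in Hi, against 975.7 and 931.4 in Lo. Slc40a1 had 1389.5 and 1297.4 in Hi, against 453.0 and 341.2 in Lo. Of the 12 markers, 9 had differences above 0 and 3 below, with a median of 0.24. Mertk was at or below the dim limit on all 4 arrays, and Cd5l and Siglec1 were each above it on 1 Hi array alone. Adgre1, Cd68, C1qb, C1qc and Cd163 overlapped between the groups, and C1qa differed by 0.32. Of 8 stromal markers 4 were dim on all 4 arrays, which were Pdgfra, Lepr, Col3a1 and Lum. Pdgfrb was bright, with log2 intensities of 9.91 and 9.90 in Hi against 9.46 and 10.18 in Lo, and Col1a2 was lower in Hi at -1.44 ± 0.36 (SE). The summed stromal markers came to 1220 and 1271 in the Hi arrays and 1108 and 1738 in the Lo arrays. Of 7 endothelial markers 6 were above the dim limit on all 4 arrays and Cdh5 was dim on all 4. Plvap, an endothelial membrane protein, was higher in Hi at 1.33 ± 0.17 (SE), while Robo4, Tie1 and Emcn were lower. The log2 differences of the lower ones were -2.27 ± 0.28 for Robo4, -1.33 ± 0.17 for Tie1 and -1.03 ± 0.16 for Emcn. Of 8 erythroid markers 5 were higher in Hi at an unadjusted p under 0.05, namely Epor, Klf1, Gata1, Rhag and Car1. Hba-a1 and Alas2 were dim on all 4 arrays, and Slc4a1 overlapped between the groups at a log2 difference of -0.16. Summed over all 8, erythroid intensity came to 12581 and 14663 on the Hi arrays, against 2264 and 3179 on the Lo arrays. The part of these cells in the Vcam1 values was not tested.

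Icam1, the ligand of Itgb2 integrins, had log2 intensities of 9.95 and 10.07 on 1424067_at in Hi, against 10.75 and 11.08 in Lo. The groups did not overlap, and the means were 10.01 ± 0.09 for the Hi arrays and 10.92 ± 0.23 for the Lo arrays (SD, n = 2 each). The log2 difference was -0.91 ± 0.18 (SE), 1.88-fold lower, with a limma unadjusted p of 0.00725 and an adjusted p of 0.138. Over the alternatives tried its difference stayed between -1.07 and -0.75. Of the 7 endothelial markers 1, Plvap, was higher in Hi and 3 were lower (unadjusted p under 0.05), while Pecam1 differed by 0.47 and Kdr by -0.65. Their sum came to 2352 and 2330 in the Hi arrays and 5381 and 4809 in the Lo arrays, mostly from the 3 lower ones, Robo4, Tie1 and Emcn, which stem cells express too, and their part was not tested. Icam2, a ligand of the same receptors found on endothelium and leukocytes, had 11.12 and 11.18 in Hi and 10.68 and 11.06 in Lo, a log2 difference of 0.28 with an interval from -0.24 to 0.80.

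The bases before the start of Icam1 (GRCm38.p6, chr9:21015690-21015939, plus strand) are given for the counter-receptor that was lower in Hi; capitals mark GGGCGG on the other strand.
Icam1: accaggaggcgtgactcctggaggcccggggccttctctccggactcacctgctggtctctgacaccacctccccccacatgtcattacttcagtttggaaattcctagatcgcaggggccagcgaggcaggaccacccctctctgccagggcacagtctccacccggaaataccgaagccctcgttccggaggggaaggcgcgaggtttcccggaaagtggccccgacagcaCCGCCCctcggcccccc
The match begins 17 bases before the start.

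**Figure D4:**
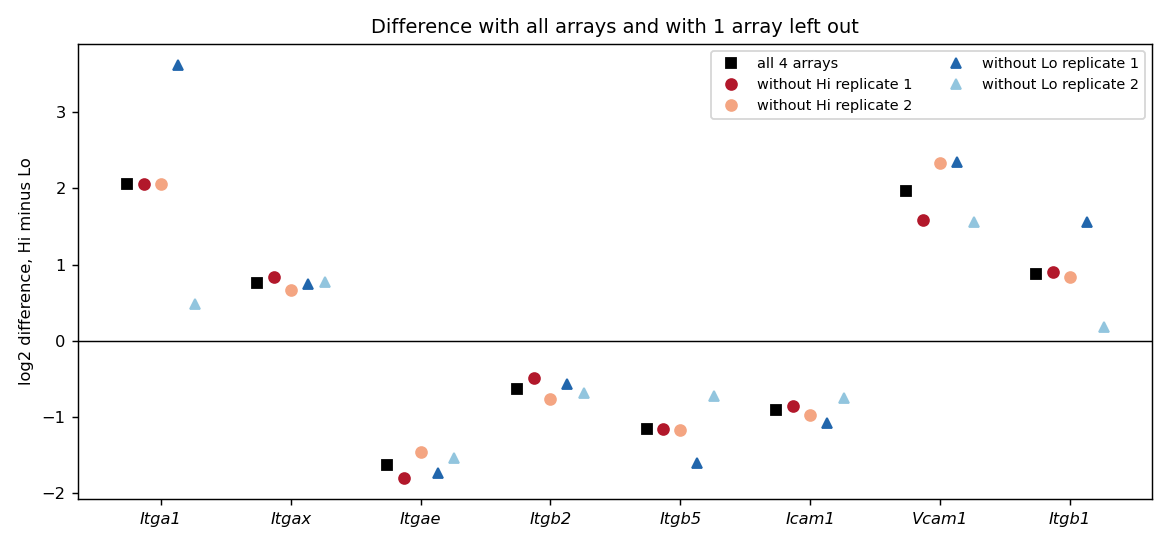
Log2 difference, Hi minus Lo, of 8 members with all 4 arrays (squares), without each Hi array (circles) and without each Lo array (triangles). Itgax, Itgae and Icam1 move little, while Itga1 runs from 0.48 to 3.62 and Itgb1 from 0.18 to 1.56 with the Lo array left out.

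Selplg and Cd44, the selectin and hyaluronan ends of marrow adhesion, were close between the groups. Selplg, which encodes the main ligand of P-selectin, had log2 intensities of 11.53 and 11.62 in Hi, against 11.55 and 12.02 in Lo. The groups overlapped, and the log2 difference of -0.21 had an interval from -0.80 to 0.38. Cd44 had 12.08 and 12.16 in Hi, against 11.96 and 11.89 in Lo on 1434376_at, a log2 difference of 0.20 with an interval from -0.18 to 0.57. Its probe set 1423760_at gave 0.40 and 1443265_at, dim on all 4 arrays, -0.08. On 1452483_a_at, singled out after its values were seen, Hi had 9.86 and 9.64 and Lo had 8.93 and 9.04, a log2 difference of 0.76 ± 0.16 (SE) with a limma unadjusted p of 0.00832 and an adjusted p of 0.143. So 3 of the 4 probe sets lay above 0, by sizes that differed.

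Of 73 further genes of integrin function, 67 were measured. With an unadjusted p under 0.05, 2 of the 67 were higher and 15 lower in Hi, where 9.25% and 11% of all genes were. The lower side thus held a larger share than among all genes, and the higher side a smaller one. At an adjusted p of 0.05, 0 of the 67 passed. Their median log2 difference was -0.14. The activators and regulators had 1 of 16 higher and 2 lower, and the kinases and adaptors 1 of 22 higher and 4 lower. The matrix ligands had 0 of 11 higher and 3 lower, and the other surface partners 0 of 16 higher and 6 lower, with a median of -0.49. The megakaryocyte pair Itga2b and Itgb3 differed by 0.37 and -0.33, and neither had an unadjusted p under 0.05. On the higher side Parvb, a parvin that binds integrin-linked kinase, had log2 intensities of 7.19 and 7.31 in Hi and 5.87 and 6.26 in Lo. Its log2 difference was 1.19 ± 0.19 (SE), with a limma adjusted p of 0.112. Apbb1ip, the Rap1 effector that brings talin to integrins, differed by 0.62 ± 0.17 (SE). Cdh1, E-cadherin, the ligand of the Itgae receptor, differed by 0.97 ± 0.35 (SE) with an unadjusted p of 0.0518. The lower genes with the smallest p were F11r at -1.36 ± 0.14 (SE), Esam at -2.01 ± 0.24 and Jam3 at -1.95 ± 0.27, with both Hi arrays below both Lo arrays in each.

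A search for CACGTG, the canonical E-box of Myc and Max, covered the 250 bases before the start in 27 promoters of 24 measured members. It was present in 1 of them, at an Ilk start, 3.70% against 6.02% of all 32851 promoters in the RefSeq table. The Sp1 letters GGGCGG were in 11 of the 27 (40.7%, against 32.7% of all), the AP-1 letters TGANTCA in 1 (3.70% against 6.75%), and GAGGAA, the core that PU.1 reads, in 8 (29.6% against 23.3%). Each was searched on both strands. These are matches of letters and not binding sites. Vcam1, Itgae and Itgb2 were among the measured members whose promoters were not searched.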

How the data were processed

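LSK cells from mouse femurs were measured on Affymetrix mouse expression arrays, 2 Hi and 2 Lo, after amplification of 5 ng of total RNA with a NuGEN Ovation kit, per the labels' protocols. The deposited values are an intensity per probe set, not on a log scale. The submitters' processing notes name RMA, with no version in the sources used here. The scale was found from the values: medians of the deposited intensity were 51.9 and 52.5 in Hi and 54.9 and 56.5 in Lo, with highest values of 21288 to 22121.7. Because RMA equalises arrays, total RNA per cell is not measured.

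Here log2 was taken with no offset, 64 control probe sets were left out, and Hi minus Lo was fitted over the other 45037 with limma 3.58.1 in R 4.3.3 (lmFit, eBayes, two-sided, Benjamini-Hochberg over all of them). The fit was tested on simulated data, with 50 probe sets changed at each size. At an adjusted p of 0.05 it called 0 of 50 changed by 1 on the log2 scale and 2 changed by 2. It called 37 of 50 changed by 4 and 45 changed by 6, and 7 unchanged ones. Few probe sets were changed in the simulation, while 18.0% in these data had an unadjusted p under 0.05 (limma). Adjusted calls depend on that share, so these counts do not give the power of the real fit. Probe sets were named from the platform annotation, which gave 1 symbol to 34945, several to 932 and none to 9160; Entrez identifiers matched 34741 in the RefSeq table of GRCm38.p6. Promoters are from RefSeq, GRCm38.p6. The number of arrays limits the precision. The 13 alternatives were probe sets averaged per gene, 1 probe set per gene, no moderation, an intensity trend in the prior, a replicate block, arrays shifted to 1 median, cyclic loess, dim probe sets left out, 16 added before log2, and each array left out in turn.

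Members, lists and tests were chosen with earlier results of these data known. Every member is named; values on each array go to members at an unadjusted p under 0.05 and to Itga4, Itgb1, Cd44 and Selplg, and further probe sets are given where the sign is opposite or the difference is over 1 away. Per-array values of other members and genes of the marker lists were added after their values were seen. The dim limit and the bounds of folds were set from 27 bacterial controls. The marker lists were B cells (5 measured, 0 at an unadjusted p under 0.05), mast cells (5, 1 higher), granulocytes (9, 4 higher), megakaryocytes (7, 2 higher and 2 lower), and those named in the text.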

Additional observations from a re-analysis of the deposited data

How the results depend on the processing

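The difference of each member was computed again under 13 alternatives, and of 448 values 403 kept their direction and side of an unadjusted p of 0.05. Itgae and Itgax kept both under all 13. In the test without moderation the p was no longer under 0.05 for Itgb2, Itgb5 and Vcam1 (0.0512, 0.118 and 0.0688). Fits without 1 array leave its group a single array, assumed to vary like the other group. Leaving out Hi replicate 1 did the same to Icam1 (0.0502), Itgb5 (0.0999) and Itgb2 (0.106), leaving out Hi replicate 2 to Itgb5 (0.0976), and leaving out Lo replicate 1 to Itgb2 (0.0718).

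Over all features the count of calls was 0; it was 528 with probe sets averaged per gene, 404 with 1 probe set per gene (both over 18193 genes) and 1 in the test without moderation. Members called were 0, and 1, Itgae, in each of the first 2 alternatives. Members lower at an unadjusted p under 0.05 were 4, and 8 with an intensity trend in the prior; leaving out single arrays gave 1 to 7 lower and 3 to 4 higher, against 2 higher with all arrays. The ends were 1 lower without Hi replicate 1 and 7 lower without Lo replicate 1, and 4 were higher without Lo replicate 1 or Lo replicate 2.

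With the replicate block the counts were 2 higher, 4 lower and 0 called, as without it. The deviations of same-numbered arrays correlated at 0.0719, and with 2 pairs the numbers are not taken to pair the arrays.

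The sign turned in 14 of the 448 values, over 8 genes. The cause was not tested. Fermt2 gave 0.01 with the mean of its probe sets and 0.05 without Lo replicate 1, Itgav 0.001 after the arrays were shifted to 1 median, 0.14 without Hi replicate 2 and 0.02 without Lo replicate 1. Vcl gave -0.04 by cyclic loess and -0.02 without Hi replicate 2 or Lo replicate 2. Itgam gave -0.13 without Hi replicate 1 and -0.04 without Lo replicate 2, and Itgb1bp1 -0.12 without Lo replicate 1. Without Lo replicate 2, Itga5 gave 0.08, Ilk 0.04 and Selplg 0.02. Shifting the arrays to 1 median moved the median log2 difference of all probe sets to 0.14, against 0.04. With single arrays left out, the values ran from -0.45 to 0.08 for Itga5, -0.33 to 0.14 for Itgav, -0.13 to 0.65 for Itgam, -0.12 to 0.50 for Itgb1bp1, -0.31 to 0.05 for Fermt2, -0.51 to 0.04 for Ilk and -0.44 to 0.02 for Selplg. Folds of genes near the dim limit are the least certain.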
